A study of Mus musculus with 2 samples.

Results

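A list of 10 genes of endothelial activation was followed across the cell classes of the mouse spinal cord: Icam1, Vcam1, Sele, Selp, Ptgs2, Cxcl1, Ccl2, Il6, Tnfaip3 and Il1r1. They are 10 of the 24071 rows of the deposited tables, and they were chosen because several of them led a large group of endothelial cells in these same libraries. Their levels are therefore a description of these cells and carry no test. The cells came from spinal cords of C57BL/6j mice of 10 to 12 weeks homozygous for Cre in Clec9a, which encodes the receptor DNGR-1, and homozygous in Rosa26 for a tdTomato reporter that Cre switches on for good. All sorted cells were live, CD45- and CD133+. The tdTomato+ cells made up the DNGR-1-traced library (4825 cells, 46530507 UMIs) and the tdTomato- cells the non-traced library (25411 cells, 233318692 UMIs). A UMI is a tag that marks a single captured RNA molecule. This Cre can mark a cell that has at some time expressed Clec9a, and the cells that descend from it. The paper explains part of the unlabelled ependymal cells by incomplete recombination, so a tdTomato- cell may have such a history too. The number of animals pooled per sort is not given in the sources used here. Each group was 1 library, so no difference below has a replicate check. Intervals are exact 95% intervals and cover counting error only. The tables share 42 cell barcodes.

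Inflamed endothelium is known for a set of genes that the transcription factor NF-kB switches on. Signals such as interleukin 1 and tumour necrosis factor release NF-kB from its inhibitors, and the endothelial cell then displays adhesion molecules and secretes chemokines that let leukocytes slow, attach and cross the vessel wall. In most tissues leukocytes leave the blood mainly through small veins, and venous endothelium is known to carry more of these molecules than capillary endothelium. In the list, Sele and Selp encode E-selectin and P-selectin, on which leukocytes roll, and Icam1 and Vcam1 encode ligands of leukocyte integrins, to which they attach. Cxcl1 and Ccl2 encode chemokines for neutrophils and monocytes, and Il6 encodes the cytokine interleukin 6. Ptgs2 encodes cyclooxygenase 2, the inducible enzyme of prostaglandin synthesis. Il1r1 encodes the signalling receptor of interleukin 1, and Tnfaip3 encodes A20, an enzyme that restrains NF-kB signalling and is itself an NF-kB target.

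In GRCm38 (GENCODE vM21), 4 of the 10 genes lie on chromosome 1: Sele at chr1:164048234-164057677 and Selp at chr1:164115264-164150026 in the same region of the plus strand, Ptgs2 at chr1:150100031-150108227 and Il1r1 at chr1:40225080-40317257, both also on the plus strand. Icam1 lies at chr9:21015985-21028817, Cxcl1 at chr5:90891241-90893115, Il6 at chr5:30013114-30019981 and Ccl2 at chr11:82035571-82037453, each on the plus strand. Vcam1 (chr3:116109949-116129688) and Tnfaip3 (chr10:19000910-19015657) are on the minus strand.

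The promoters of these genes are shown because the genes are grouped as NF-kB targets, and because their levels differed among themselves. RefSeq promoter sequence (GRCm38.p6) was matched for 8 of the 10 genes, with 10 sequences in all, and not for Vcam1 and Ccl2. The 250 bases before each start were searched on both strands for the κB consensus, the site that NF-kB binds, and for a looser form of it, GGNNNTTCC, which can overlap the consensus. Among all 32851 promoter windows of this length, 7.25% held the consensus and 15.7% the looser form. The consensus was found for 4 of the 8 genes (Cxcl1, Il6, Tnfaip3 and Il1r1) and the looser form for 7 of them, all but Ptgs2. The stretches below run 5′ to 3′ on the gene's strand, and capitals mark a match to either form. They cover chr9:21015690-21015939 for Icam1, chr1:164047984-164048233 for Sele, chr5:90890995-90891240 for Cxcl1, chr5:30012864-30013113 for Il6 and chr1:150099781-150100030 for Ptgs2, all on the plus strand, and chr10:19015411-19015437 on the minus strand for Tnfaip3.
Icam1: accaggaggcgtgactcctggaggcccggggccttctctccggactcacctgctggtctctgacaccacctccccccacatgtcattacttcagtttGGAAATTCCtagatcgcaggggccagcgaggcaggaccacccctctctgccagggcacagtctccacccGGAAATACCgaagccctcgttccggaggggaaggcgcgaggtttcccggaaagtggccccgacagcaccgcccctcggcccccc
Sele: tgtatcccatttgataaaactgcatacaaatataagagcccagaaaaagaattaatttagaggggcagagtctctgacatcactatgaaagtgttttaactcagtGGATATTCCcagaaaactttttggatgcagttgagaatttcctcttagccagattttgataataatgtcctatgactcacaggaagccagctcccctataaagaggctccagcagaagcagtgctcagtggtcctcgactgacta
Cxcl1: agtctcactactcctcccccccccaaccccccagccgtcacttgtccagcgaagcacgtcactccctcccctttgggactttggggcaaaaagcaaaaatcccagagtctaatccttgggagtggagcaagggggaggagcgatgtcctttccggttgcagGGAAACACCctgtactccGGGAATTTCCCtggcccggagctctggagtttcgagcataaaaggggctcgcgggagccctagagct
Il6: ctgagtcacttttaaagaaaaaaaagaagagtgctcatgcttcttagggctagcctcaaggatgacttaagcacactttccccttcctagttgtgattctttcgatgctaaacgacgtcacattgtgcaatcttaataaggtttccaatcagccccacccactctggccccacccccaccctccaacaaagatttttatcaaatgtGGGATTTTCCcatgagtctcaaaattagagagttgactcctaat
Tnfaip3: actGGAATTTCCatcGGAAATCCCCct
Ptgs2: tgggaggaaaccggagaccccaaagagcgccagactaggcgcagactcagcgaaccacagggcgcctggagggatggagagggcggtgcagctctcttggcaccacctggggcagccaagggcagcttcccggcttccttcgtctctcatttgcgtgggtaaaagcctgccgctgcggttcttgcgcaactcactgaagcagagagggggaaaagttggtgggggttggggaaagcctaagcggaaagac
In Cxcl1 the consensus lay 71 and 70 bases before the start, as overlapping matches of opposite strands, and in Il6 it lay 44 bases before the start. Icam1 held only the looser form, at 153 and 84 bases before the start, and so did Sele at 145 bases. In Selp, not printed, the looser form lay 14 bases before the start, and in the second promoter of Il1r1 both forms lay 232 bases before it. The start that RefSeq gives for Tnfaip3 lies inside the GENCODE span of the gene, so the stretch printed lies before that start but within the span. Only 140 of the 250 bases searched there lay outside exons, and a further consensus match, 125 bases before the start, is not printed. A match is a run of letters and not a shown binding site, and its absence from this window, as in Ptgs2, says nothing of other windows.

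Cell classes were rebuilt from marker genes, and each is called by its markers. In the non-traced library 20916 cells were endothelial-like, 277 mural-like (pericytes and smooth muscle around vessels), 32 fibroblast-like and 1148 ependymal-like (ciliated cells of the central canal). Markers of 2 classes were found in 1486 endothelial and mural, 731 ependymal and endothelial and 86 endothelial and astrocyte cells, and 735 cells stayed unnamed. In the DNGR-1-traced library 4750 cells were ependymal-like and 44 endothelial-like. The endothelial-like cells were then clustered without the 10 genes and without 87 further activation genes, into 12 sub-clusters. Of these, 4 were arterial-like (4836 cells), 5 capillary-like (12876 cells) and 2 venous-like (2216 cells), and 1 of 988 cells led by mural genes was left out of these classes. The 8 venous markers, among them Nr2f2, Slc38a5 and Vwf, summed to 5292 CPM (UMIs scaled to the same total in every class) in venous-like cells, 2308 CPM in capillary-like cells and 847 CPM in arterial-like cells. The 8 capillary markers summed to 5342 CPM in venous-like, 6233 CPM in capillary-like and 4009 CPM in arterial-like cells. Only 2 of these 8 were at least 2-fold lower in venous-like than in capillary-like cells. The venous-like class thus had more of the venous markers but kept most of the capillary marker level. Median depth was 10681.5 UMIs in venous-like, 6185 in capillary-like and 8955 in arterial-like cells. Shares of cells were therefore taken after thinning every cell to 1000 UMIs.

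All 10 genes had a UMI in the non-traced library, but they fell into 3 sets. Icam1, Vcam1, Ptgs2, Cxcl1, Tnfaip3 and Il1r1 were found in every endothelial class and were highest in venous-like cells. Sele and Selp were nearly restricted to a few venous-like cells. Ccl2 and Il6 were close to 0 in endothelial-like cells.

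**Figure D1:**
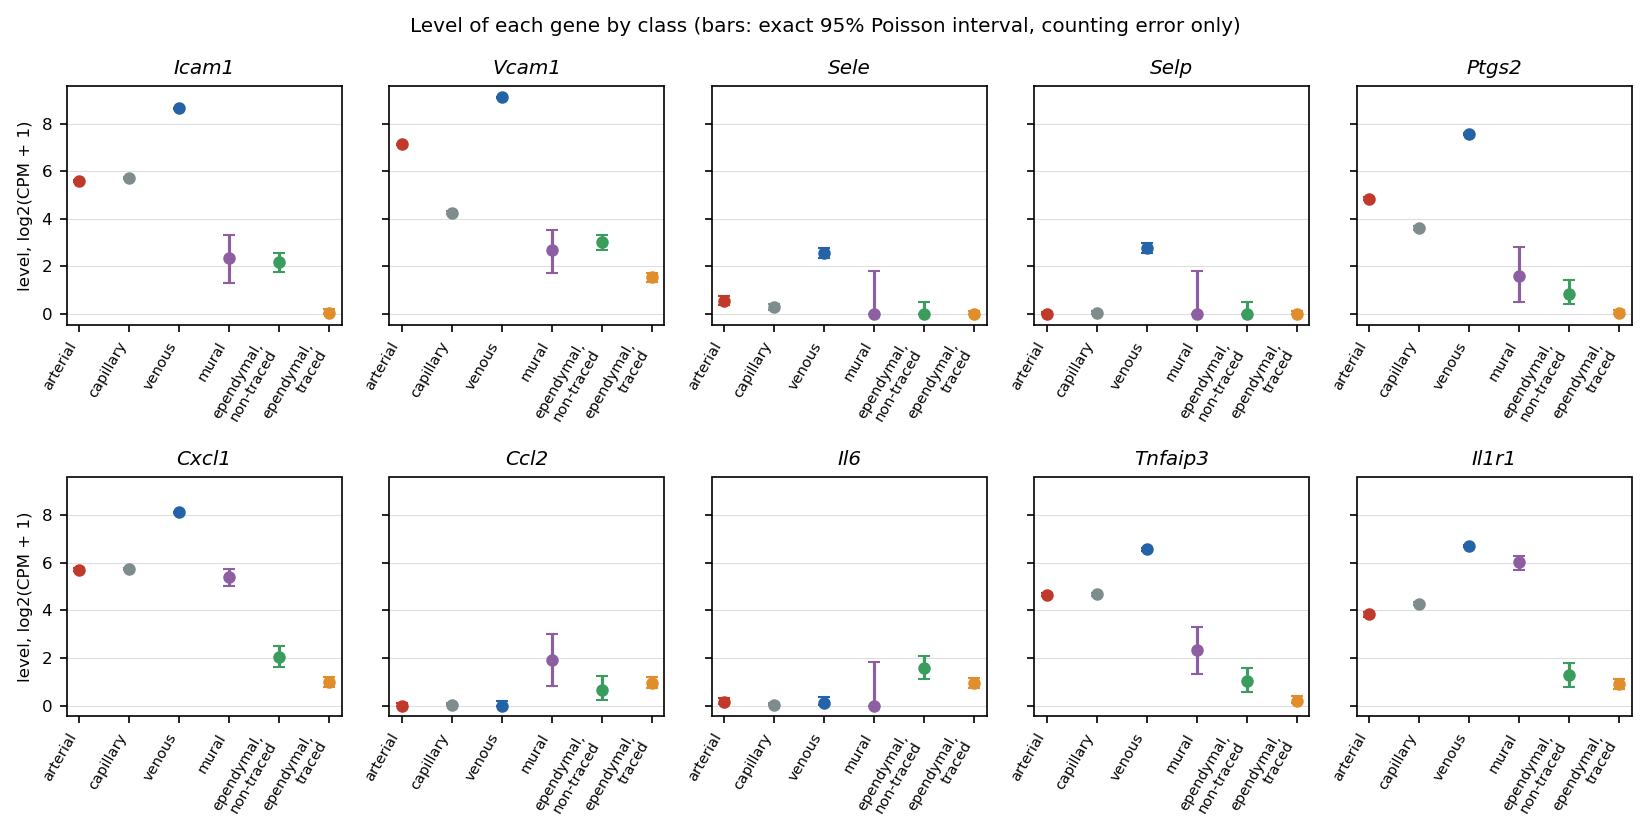
Level of each of the 10 genes, as log2(CPM + 1), in arterial-like, capillary-like, venous-like and mural-like cells of the non-traced library and in ependymal-like cells of both libraries; points are summed counts and bars exact 95% Poisson intervals. The venous-like point is the highest of the 6 for 8 genes, and the points of Ccl2 and Il6 stay below 2 on this scale in every class.

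Among the adhesion molecules, Icam1 stood at 400.4 CPM (392.8 to 408.1) in venous-like cells, 51.5 CPM in capillary-like cells and 47.5 CPM in arterial-like cells. The capillary-like and arterial-like levels were thus close to each other and the venous-like level was 7.77-fold (7.51 to 8.04) the capillary-like level. At 1000 UMIs, 25.9% of venous-like cells had an Icam1 UMI (24.1 to 27.8), against 4.11% of capillary-like and 3.16% of arterial-like cells. In ependymal-like cells of the same library, which are not known for Icam1, the share was 0.348% at a median depth of 7069 UMIs. Without thinning, the Icam1 share was 72.7% in venous-like and 19.2% in capillary-like cells.

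Vcam1 had another order: 551 CPM in venous-like cells (542 to 560), 140 CPM in arterial-like cells (136 to 143) and 18.2 CPM in capillary-like cells (17.4 to 19.1). It was the gene of the list with the clearest arterial level, 7.65-fold (7.26 to 8.07) the capillary-like level. Its venous-like level was 30.2-fold (28.7 to 31.7) the capillary-like level. Shares of cells at 1000 UMIs kept that order, with 27.6% in venous-like, 8.91% in arterial-like, 1.28% in capillary-like and 1.22% in ependymal-like cells. The capillary-like share of Vcam1 thus lay within the counting interval of the ependymal-like share (0.668 to 2.04). The summed Vcam1 level of capillary-like cells, 18.2 CPM, was nevertheless above the 7.12 CPM of ependymal-like cells.

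The selectins were rare. Sele stood at 4.96 CPM (4.15 to 5.89; 131 UMIs) in venous-like, 0.218 CPM in capillary-like and 0.446 CPM in arterial-like cells, and 21 of the 23 arterial-like UMIs came from 1 cell. Selp stood at 5.83 CPM (4.95 to 6.83; 154 UMIs) in venous-like cells, had 3 UMIs in capillary-like cells and none in arterial-like cells, and 68 of the 154 venous-like UMIs came from 1 cell. The venous-to-capillary ratio was 22.7 (14.3 to 37.98) for Sele and 187 (62.9 to 918) for Selp. At 1000 UMIs only 0.451% of venous-like cells had a Sele UMI and 0.316% a Selp UMI, and neither gene had a UMI in mural-like or ependymal-like cells. A count of 0 allows a share of up to 1.08% in the 277 mural-like cells, so a selectin share as small as the venous-like one was not detectable there.

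Cxcl1, Ptgs2, Tnfaip3 and Il1r1 were also higher in venous-like cells. The chemokine gene Cxcl1 stood at 277 CPM (271 to 283) there, 53.1 CPM in capillary-like and 51.3 CPM in arterial-like cells. Its venous-like level was 5.21-fold (5.03 to 5.40) the capillary-like level, and its arterial-to-capillary ratio of 0.966 (0.921 to 1.01) included 1. At 1000 UMIs the share of cells with Cxcl1 was 15.2% in venous-like, 3.604% in capillary-like, 3.37% in arterial-like and 0.348% in ependymal-like cells.

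Ptgs2 stood at 188 CPM (183 to 194) in venous-like cells, 27.8 CPM in arterial-like cells and 11.4 CPM in capillary-like cells. Like Vcam1, it had a second, smaller step in arterial-like cells, at 2.44-fold (2.25 to 2.64) the capillary-like level. Its venous-to-capillary ratio was 16.5 (15.5 to 17.7). The shares of cells at 1000 UMIs were 11.2%, 2.502% and 1.21% in the same order of classes, and 0.0871% in ependymal-like cells.

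Tnfaip3, the A20 gene, stood at 93.6 CPM (89.9 to 97.3) in venous-like cells and at 24.6 and 24.3 CPM in capillary-like and arterial-like cells. The latter levels did not differ beyond counting error, with a ratio of 0.989 (0.923 to 1.06), and the venous-to-capillary ratio was 3.81 (3.595 to 4.03). The receptor gene Il1r1 stood at 104 CPM (100.0 to 108) in venous-like, 18.3 CPM in capillary-like and 13.3 CPM in arterial-like cells. Its arterial-to-capillary ratio was 0.729 (0.666 to 0.796), the lowest of the 6 genes found throughout the endothelium, and its venous-to-capillary ratio was 5.68 (5.35 to 6.03). The arterial-to-capillary ratio of Icam1 was 0.921 (0.878 to 0.967).

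Venous-like cells were 10.6% of the endothelial-like cells. They held 56.8% of the endothelial-like UMIs of Icam1, 60.7% of Vcam1, 64.6% of Ptgs2, 51.0% of Il1r1 and 39.1% of Tnfaip3. For Sele and Selp the shares were 74.0% and 98.1%. Over single cells at 1000 UMIs, 56.5% of venous-like cells had a UMI of at least 1 of the 10 genes, 27.1% of at least 2 and 10.2% of at least 3. The corresponding shares were 12.4%, 1.45% and 0.140% in capillary-like cells and 18.7%, 2.34% and 0.165% in arterial-like cells.

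Genes were compared between classes by size alone, as at least 2-fold apart on log2(CPM + 1), counting only genes that reached 5 CPM in 1 of the classes or both. Between venous-like and capillary-like cells 7 of the 10 genes reached 5 CPM and all of the 7 were higher in venous-like cells, where 1.68% of 9764 genes were. Sele, at 4.96 CPM, fell just under that level. None of the 7 was lower, against 0.789% of all genes. Since the list was drawn from this pattern, nothing is read from the count. The median log2 difference of the 7 genes was 2.73 and that of all genes -0.01. Without a small sub-cluster of 98 Ackr1-high cells, described below, Selp was no longer 2-fold apart (log2 difference 0.62), and Ptgs2 had a log2 difference of 3.36 in place of 3.93. Between arterial-like and capillary-like cells 6 of the 10 genes were compared, Vcam1 and Ptgs2 were higher in arterial-like cells and none was lower, where 2.98% and 0.740% of 9866 genes were.

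Other measures moved with the venous-like class. The summed level of 10 genes known to respond to tissue dissociation, such as Fos, Jun and Egr1, was 25422 CPM in venous-like, 17520 CPM in capillary-like and 16214 CPM in arterial-like cells, and none of the 10 was at 0 in any of them. Their part in the venous result was not tested. Summed markers of neutrophils were 0.379 CPM, of microglia and macrophages 2.99 CPM and of platelets 17.8 CPM in venous-like cells, against 1.08, 2.07 and 14.2 CPM in capillary-like cells, with 2 of 5 neutrophil, 3 of 10 microglial and macrophage and no platelet marker at 0 in venous-like cells. The summed interferon response genes were lower, at 913 CPM in venous-like and 1083 CPM in capillary-like cells.

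Within the venous-like cells the levels were uneven. The larger sub-cluster, of 2118 cells led by Cyp2e1, Flrt2, Wnt5a and by Icam1 and Cxcl2, had 386 CPM of Icam1, 513 CPM of Vcam1, 126 CPM of Ptgs2 and 268 CPM of Cxcl1. A small sub-cluster of 98 cells was led by Lrg1, Ptgs2, Ackr1, Cd14, Lcn2 and Vwf. Ackr1, a chemokine scavenging receptor, is known from venules, and all 8 venous markers were found in most of these cells. Of the 8 capillary markers, 3 were found in most of them. In the larger sub-cluster 5 venous and 7 capillary markers were found in most cells. The capillary markers summed to 5466 CPM in the larger and 1909 CPM in the small sub-cluster. This small sub-cluster held the highest level of 8 of the 10 genes, all but Ccl2 and Il6, with 803 CPM of Icam1, 1597 CPM of Vcam1, 1926 CPM of Ptgs2, 515 CPM of Cxcl1, 162 CPM of Tnfaip3 and 331 CPM of Il1r1.

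The selectins separated the venous-like sub-clusters furthest. Sele stood at 69.7 CPM in the small and 2.63 CPM in the larger sub-cluster, and Selp at 151 and 0.588 CPM. Of 31 endothelial-like cells with a Selp UMI, 28 were venous-like and 23 in the small sub-cluster. Of 56 cells with a Sele UMI, 42 were venous-like and 21 in the small sub-cluster. Only 7 cells had both, and all were in the small sub-cluster.

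P-selectin is also a platelet protein. Summed platelet markers were 28.0 CPM in cells with a Selp UMI, 14.2 CPM in cells with a Sele UMI and 17.8 CPM in venous-like cells without a selectin UMI. Vwf, the endothelial clotting factor gene stored together with P-selectin, stood at 1884, 977 and 358 CPM in the same sets of cells, and Ackr1 at 1060, 453 and 12.7 CPM. At 1000 UMIs, 58.2% of the 98 cells had a UMI of at least 2 of the 10 genes and 24.5% of at least 4. The dissociation genes summed to 16383 CPM in the small and 25747 CPM in the larger venous-like sub-cluster. Their part in the difference between these sub-clusters was not tested.

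**Figure D2:**
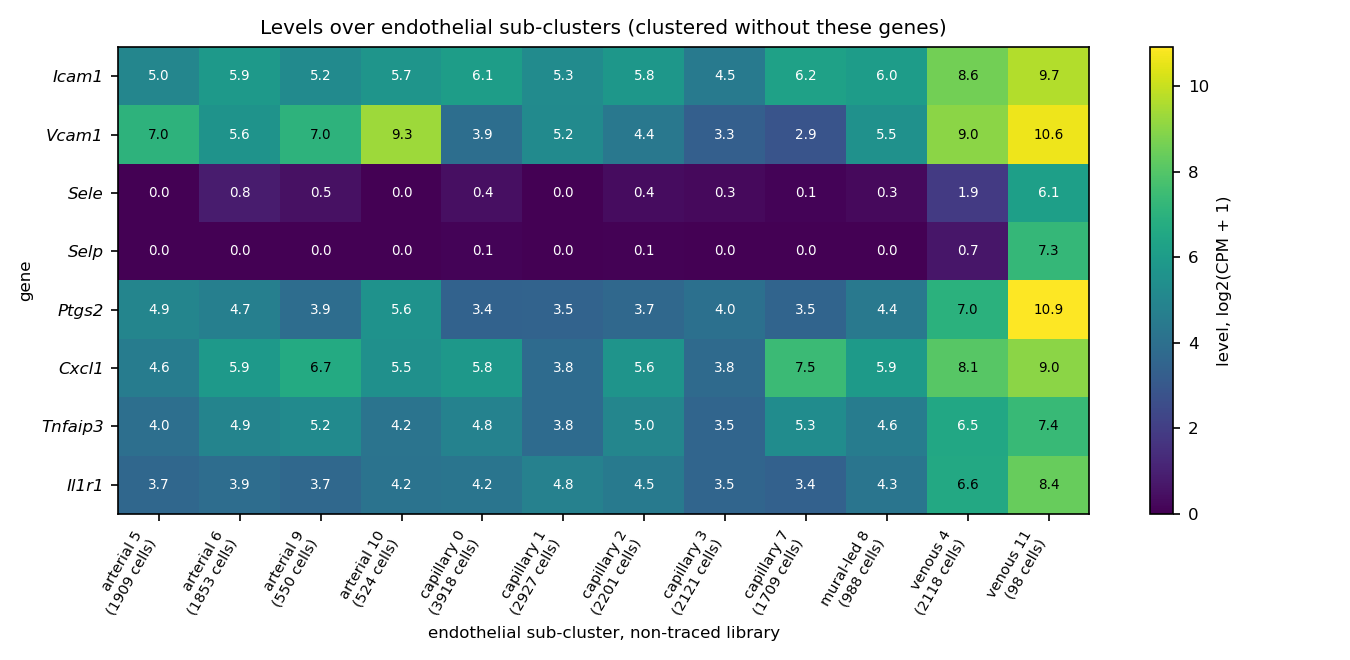
Levels of 8 genes (rows) in the 12 endothelial sub-clusters of the non-traced library (columns, with cell numbers), as log2(CPM + 1), printed in each field and shown by colour. The columns of both venous-like sub-clusters are the highest for every gene but Vcam1, which is also high in the Mgp-led arterial-like column.

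Outside the venous-like cells the genes differed in where they were high. Vcam1 reached 626 CPM in an arterial-like sub-cluster of 524 cells led by Mgp, Cytl1, Gkn3 and Fbln5, above the 513 CPM of the larger venous-like sub-cluster. The other arterial-like sub-clusters had 131, 131 and 47.6 CPM. Ptgs2 was also highest there among arterial-like cells, at 46.1 CPM, but Icam1 was not, at 51.1 CPM against 31.3 to 57.8 CPM in the others. Without the Mgp-led cells the arterial-to-capillary log2 difference of Vcam1 was 2.13 in place of 2.87, and that of Ptgs2 1.10 in place of 1.21, both still at least 2-fold.

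Cxcl1 had its second site in a capillary-like sub-cluster of 1709 cells led by early response genes such as Egr1, Atf3 and Nr4a1, at 174 CPM. The other capillary-like sub-clusters had 12.8 to 54.9 CPM. Icam1 was 75.1 CPM in the same cells and Tnfaip3 39.1 CPM, the highest capillary-like levels of both, but Vcam1 at 6.23 CPM and Il1r1 at 9.60 CPM were the lowest of all sub-clusters. The dissociation genes summed to 29243 CPM there, the highest of the 12. The capillary-like sub-cluster with the lowest sum, 5188 CPM, had 12.9 CPM of Cxcl1, 37.9 CPM of Icam1 and 27.1 CPM of Il1r1. That Il1r1 level was the highest among the sub-clusters that were not venous-like. The venous markers of this sub-cluster summed to 3638 CPM, also the highest among them.

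Over the 12 sub-clusters the log2 level of Cxcl1 had a Pearson r of 0.71 with the summed dissociation genes, and of 0.91 over the 10 that were not venous-like. For Tnfaip3 these values were 0.57 and 0.85, for Icam1 0.43 and 0.76, and for Vcam1 0.03 and -0.14. With the venous markers r over the 12 was 0.97 for Il1r1, 0.87 for Icam1, 0.78 for Ptgs2, 0.72 for Tnfaip3, 0.56 for Vcam1 and 0.56 for Cxcl1. Without the venous-like sub-clusters, Vcam1 and Ptgs2 went with the arterial markers (0.81 and 0.82). These correlations describe sub-clusters of a single library that share depth and dissociation. The part of dissociation in the levels of Cxcl1 and Tnfaip3 was not tested.

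The genes outside all lists whose pattern over the 12 sub-clusters was most like the mean pattern of the 8 genes, among 7269 genes of at least 20 CPM in a sub-cluster, were Acsl4 (r = 0.98), Adgrg6 (0.96), Slit2 (0.96), Lhx6 (0.96) and Wbp1l (0.96). Acsl4, an enzyme that activates polyunsaturated fatty acids, stood at 15.8 CPM in capillary-like and 33.1 CPM in venous-like cells. Adgrg6, an adhesion G protein-coupled receptor, stood at 0.706 and 38.1 CPM, with 299 CPM in the small Ackr1-high sub-cluster.

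Detection in the same cell was examined in venous-like cells thinned to 5000 UMIs (2093 cells; 123 shallower cells left out). Cxcl1 was found in 46.7% of cells with an Icam1 UMI and in 21.7% of cells without one. Vcam1 was found in 59.9% and 37.0%, and Tnfaip3 in 38.4% and 18.8% of the same cells. Icam1, Vcam1, Cxcl1, Ptgs2 and Tnfaip3 were thus each found more often in cells with any of the other four. Ptgs2 was paired most unevenly with Vcam1, in 40.7% of cells with and 18.4% of cells without Vcam1.

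For Il1r1 in venous-like cells this depended on the gene beside it. It was found in 36.5% of venous-like cells with an Icam1 UMI and 36.0% of those without, and in 36.3% of cells with and 36.3% without a Tnfaip3 UMI. With Vcam1 it was found in 43.8% against 28.6%, and with Ptgs2 in 44.3% against 32.9%. In capillary-like cells (10046 of at least 5000 UMIs) Il1r1 was found in 11.3% of cells with and 7.29% of cells without an Icam1 UMI, and in 10.7% with and 7.59% without a Tnfaip3 UMI. In arterial-like cells the shares of Il1r1 with and without Icam1 were 9.60% and 5.45%. In capillary-like cells Icam1 and Cxcl1 were also found together, with Icam1 in 32.1% of cells with and 13.0% of cells without a Cxcl1 UMI. The cells of 1 library are not replicates, and no p-value was taken from them.

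**Figure D3:**
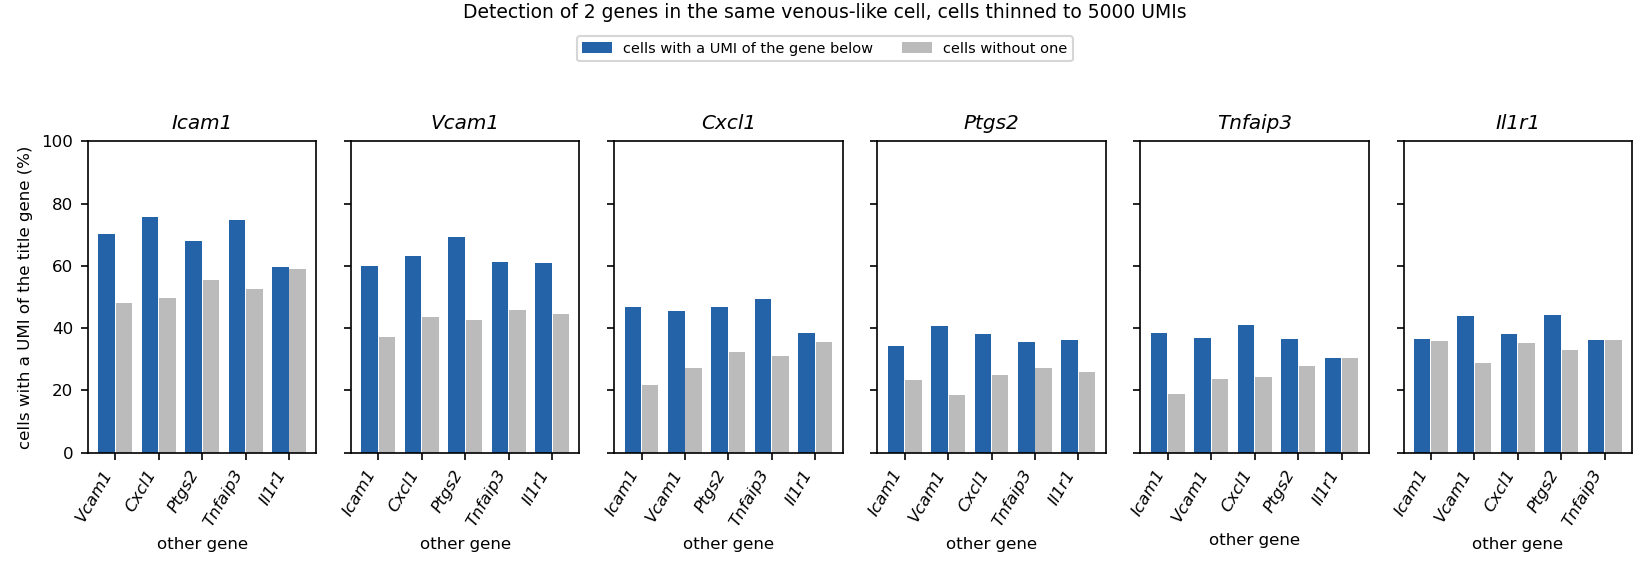
Share of venous-like cells, thinned to 5000 UMIs, with a UMI of the gene named above each panel, among cells with (blue) and without (grey) a UMI of the gene named below each pair of bars. The blue bar exceeds the grey bar for each pair of Icam1, Vcam1, Cxcl1, Ptgs2 and Tnfaip3, while the bars of Il1r1 beside Icam1 (36.5% and 36.0%) and beside Tnfaip3 (36.3% and 36.3%) are level.

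Of the wider list of 93 NF-kB and activation genes, grouped by role, 87 had a row and 60 reached 5 CPM in venous-like or capillary-like cells. Of these, 13 were at least 2-fold higher and 1 was lower in venous-like cells, beside the 1.68% and 0.789% of all genes given above, and their median log2 difference was 0.30. The wider list was also chosen with earlier results of these data known, so nothing is read from this count. Among chemokine genes 3 of 5 were higher. Cxcl2, a neutrophil chemokine like Cxcl1, stood at 112 CPM in venous-like and 23.7 CPM in capillary-like cells, Cxcl10 at 66.9 and 11.6 CPM and Cxcl11 at 37.8 and 3.08 CPM. Cxcl10 encodes a ligand of CXCR3, a chemokine receptor of T cells. Cxcl12, a homeostatic chemokine, went the other way, at 819 CPM in venous-like and 3490 CPM in capillary-like cells, and Cx3cl1 stood at 58.3 and 46.8 CPM.

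Of 7 cytokine and acute phase genes 5 were higher in venous-like cells. Csf1, a growth factor of macrophages and microglia, stood at 110 CPM in venous-like and 32.2 CPM in capillary-like cells, Lcn2 at 49.98 and 7.24 CPM, Lrg1 at 50.9 and 0.405 CPM, Ch25h at 37.8 and 3.44 CPM and Tnf at 8.14 and 1.64 CPM. Lrg1 is also on the venous marker list, chosen with earlier results known, so nothing is read from its difference. It was left out of the clustering and of the score that named the sub-clusters. In contrast to Icam1 and Vcam1, none of 7 constitutive adhesion genes was 2-fold apart. Esam stood at 1075 and 1122 CPM, Pecam1 at 519 and 584 CPM, Cd34 at 508 and 693 CPM and Podxl at 288 and 337 CPM in venous-like and capillary-like cells.

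Of 11 inhibitors and feedback genes 3 were higher in venous-like cells. Nfkbia, which encodes the inhibitor IκBα and is itself an NF-kB target, stood at 2629 CPM in venous-like and 1231 CPM in capillary-like cells, Nfkbiz at 194 and 53.7 CPM and Birc3 at 32.4 and 15.3 CPM. Socs3 (258 and 163 CPM) and Birc2 (86.3 and 60.9 CPM) were less than 2-fold apart. None of the 5 NF-kB subunit genes was 2-fold apart, with Rela at 66.3 and 63.1 CPM, Nfkb1 at 69.5 and 60.5 CPM, Relb at 38.2 and 26.9 CPM and Rel at 35.1 and 21.9 CPM. None of 5 kinase genes was either, with Map3k8 at 125 and 84.8 CPM, Ikbkb at 75.5 and 72.1 CPM, Chuk at 32.4 and 33.9 CPM and Tbk1 at 27.6 and 28.6 CPM.

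Of 18 receptor and adaptor genes only Ackr1 was 2-fold apart, at 34.3 CPM in venous-like and 0.197 CPM in capillary-like cells. Il6st, the shared signalling chain of interleukin 6 type receptors, stood at 166 and 89.3 CPM, Lifr at 87.5 and 71.0 CPM, Irak1 at 97.6 and 96.6 CPM and Ifngr1 at 70.5 and 71.6 CPM. Ackr1, like Lrg1, is on the venous marker list but was left out of the clustering and the naming score, and nothing is read from its difference. Of 2 prostanoid enzymes, Ptgis, the prostacyclin synthase gene, was higher in venous-like cells, at 47.0 against 8.05 CPM, and Ptges stood at 34.6 and 28.1 CPM. Ptgis was also high in arterial-like cells, at 36.6 CPM, and reached 157 CPM in the Mgp-led sub-cluster, where Vcam1 and Ptgs2 had their arterial maximum. Ptgs1 and Ptgds stayed below 5 CPM in all 3 endothelial classes.

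Between arterial-like and capillary-like cells, 3 of 57 genes of the wider list were higher in arterial-like cells (Ch25h, Tnfaip2 and Ptgis) and 1 was lower (Lcn2). Of 9866 genes compared, 2.98% were higher and 0.740% were lower, and nothing is read from the counts of the list.

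**Figure D4:**
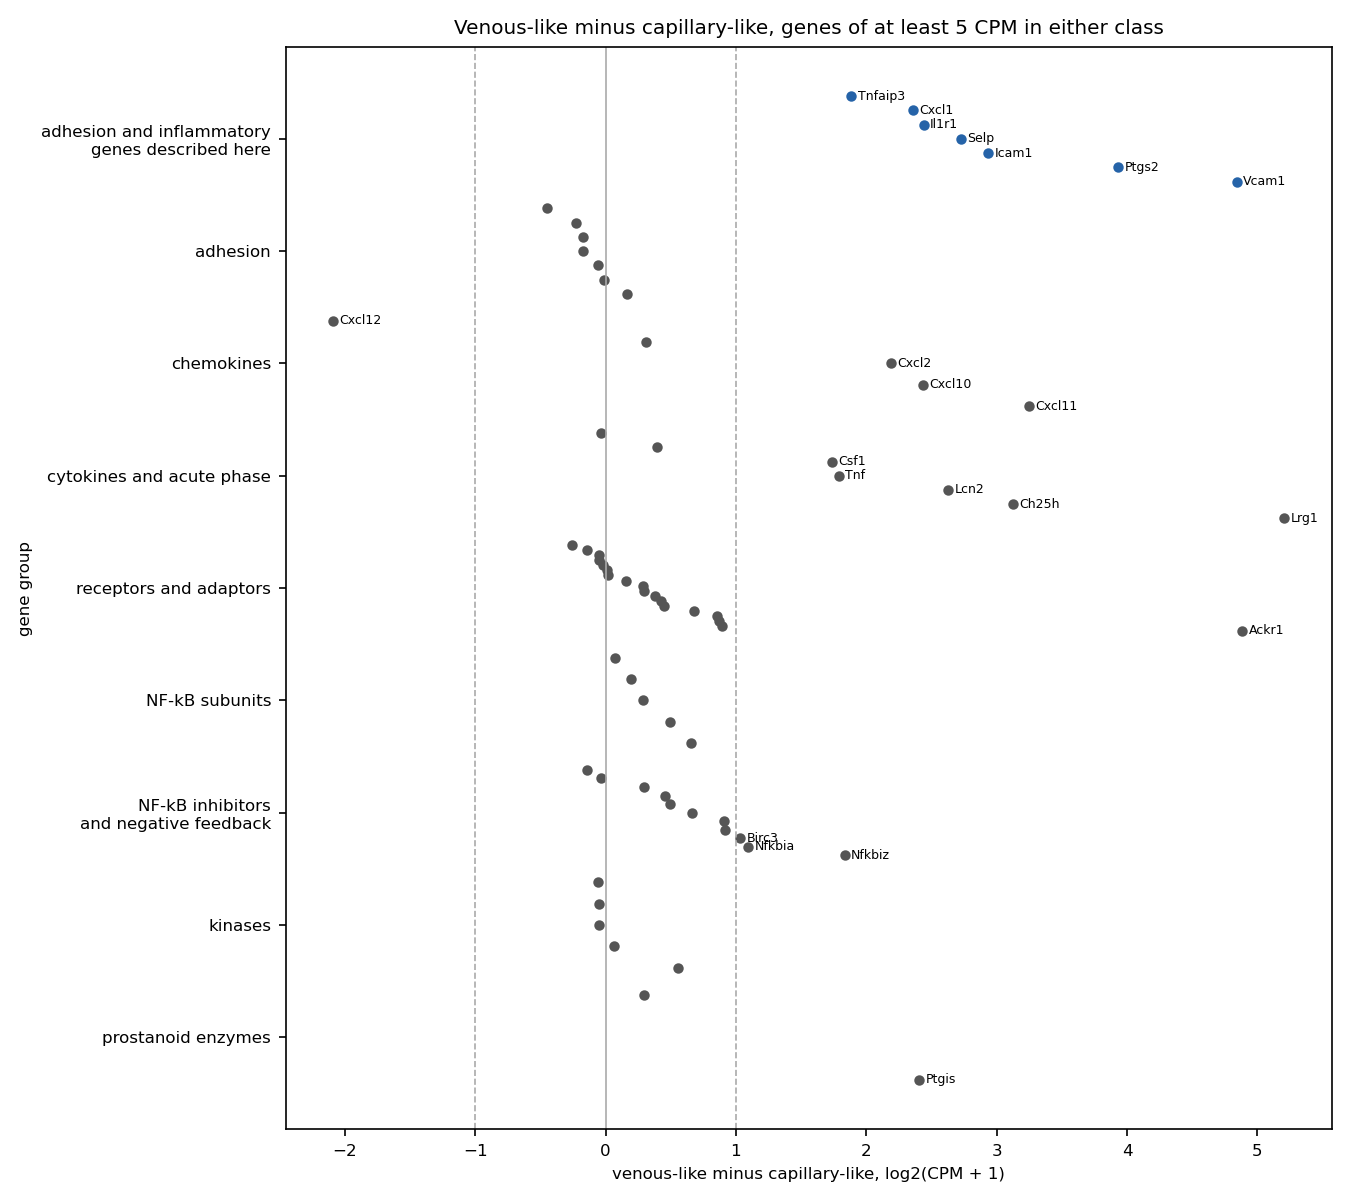
Difference between venous-like and capillary-like cells in log2(CPM + 1), for the genes of at least 5 CPM among the 10 genes described (blue, 7 points) and the wider list by role (grey, 60 points); broken lines mark a 2-fold difference and genes beyond them are named. Points of NF-kB subunits, kinases and constitutive adhesion genes lie between the lines, and chemokine points lie on both sides, with Cxcl12 at the far left.

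Mural-like cells had little of most of these genes, with a clear exception in Il1r1. It stood at 63.9 CPM (51.6 to 78.1; 94 UMIs in 277 cells) in mural-like cells, against 29.2 CPM in endothelial-like cells as a whole, a ratio of 2.19 (1.77 to 2.69). At 1000 UMIs 9.39% of mural-like cells (6.22 to 13.5) had an Il1r1 UMI, a share like the 9.84% of venous-like cells (8.63 to 11.2). The mural-like CPM was nevertheless below the venous-like CPM of 104. Cxcl1 was next, at 41.4 CPM (31.7 to 53.2), but 24 of its 61 UMIs came from 1 cell. Icam1 (4.08 CPM, 6 UMIs), Vcam1 (5.43 CPM, 8 UMIs), Tnfaip3 (4.08 CPM, 6 UMIs) and Ptgs2 (2.04 CPM, 3 UMIs) were far lower. The endothelial-to-mural ratios were 24.8 (11.4 to 67.6) for Icam1, 23.9 (12.1 to 55.4) for Vcam1 and 20.5 (7.02 to 99.5) for Ptgs2.

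In all, 6 of the 10 genes were compared between mural-like and endothelial-like cells, and 1 was higher and 5 were lower in mural-like cells, where 17.1% and 15.3% of 11039 genes were. Free RNA and doublets can carry endothelial transcripts into mural-like droplets. Of 8 endothelial markers, 7 stood at 5.42% to 9.08% of their endothelial-like level in mural-like cells, and Esam at 46.7%. Icam1 (4.03%), Vcam1 (4.18%), Ptgs2 (4.87%) and Tnfaip3 (11.9%) did not lie outside that range beyond counting error. Cxcl1 (48.7%) lay above it, near Esam, and Il1r1 (219%) lay above all 8 markers. Only 23 mural-like cells lacked a UMI of 6 endothelial markers. They had 4 UMIs of Il1r1 (47.9 CPM), 1 of Icam1, 1 of Cxcl1 and none of Vcam1. At 47.9 CPM, Il1r1 was no longer 2-fold above the endothelial-like level.

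Of the 61 genes of the wider list compared here, 5 were higher in mural-like cells (Ccl11, Tlr4, Myd88, Tnfaip8 and Ptgis) and 30 were lower. Of 11039 genes compared, 17.1% were higher and 15.3% were lower. Tlr4 encodes the receptor of bacterial lipopolysaccharide and Myd88 the adaptor that both it and the interleukin 1 receptor use.

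Ccl2 UMIs lay mostly outside endothelial-like and mural-like cells. Of 107 in the non-traced library only 3 were in endothelial-like cells and 4 in mural-like cells, while 45 were in cells with both endothelial and mural markers, 22 in cells with ependymal and endothelial markers (18 of them in 1 cell) and 10 in the 32 fibroblast-like cells, where the level was 25.1 CPM (12.1 to 46.2). In venous-like cells a count of 0 limits Ccl2 to 0.114 CPM. The fibroblast-like cells also had 390 CPM of Cxcl1 (331 to 456), above the venous-like level, and 116 CPM of Vcam1, 55.3 CPM of Icam1 and 25.1 CPM of Il1r1. The 8 endothelial markers stood at 14.4% to 22.8% of their endothelial-like level in these cells, and their part in the levels was not tested.

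Ependymal-like cells of the non-traced library were low for all 10 genes. Vcam1 was highest there, at 7.12 CPM (5.44 to 9.14), followed by Icam1 at 3.50 CPM (2.36 to 4.997) and Cxcl1 at 3.15 CPM (2.08 to 4.58). Il6 stood at 1.98 CPM (1.16 to 3.18; 17 UMIs, up to 7 of them in 1 cell), against 0.0597 CPM in endothelial-like cells (11 UMIs), a ratio of 33.2 (14.7 to 78.5). Il1r1, Tnfaip3, Ptgs2 and Ccl2 were between 0.583 and 1.40 CPM. Compared with endothelial-like cells, 6 of the 10 genes were measured at 5 CPM or more, none was higher and all 6 were lower in ependymal-like cells, where 29.0% and 19.0% of 12128 genes were. Of 61 genes of the wider list 38 were lower and 6 were higher in ependymal-like cells (Alcam, Traf1, Socs3, Chuk, Ikbke and Map3k14).

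In percent of the endothelial-like level, Ptgs2 lay among most endothelial markers of the same cells. Tnfaip3, Icam1, Cxcl1, Il1r1 and Vcam1 lay above most of these markers but below Kdr, as point values. The part of carried-over endothelial transcripts in these levels was not tested. In non-traced ependymal-like cells 7 of 8 endothelial markers stood at 1.15% to 2.39% of their endothelial-like level, and Kdr at 5.80%. Ptgs2 stood at 1.95%, Tnfaip3 at 3.06%, Icam1 at 3.46%, Cxcl1 at 3.70%, Il1r1 at 4.80% and Vcam1 at 5.48%. In the 167 ependymal-like cells without a UMI of 6 endothelial markers, Vcam1 had 7 UMIs (6.45 CPM) and Icam1 4 UMIs (3.69 CPM), levels like those of all ependymal-like cells, and Cxcl1 and Il6 had 1 UMI each.

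**Figure D5:**
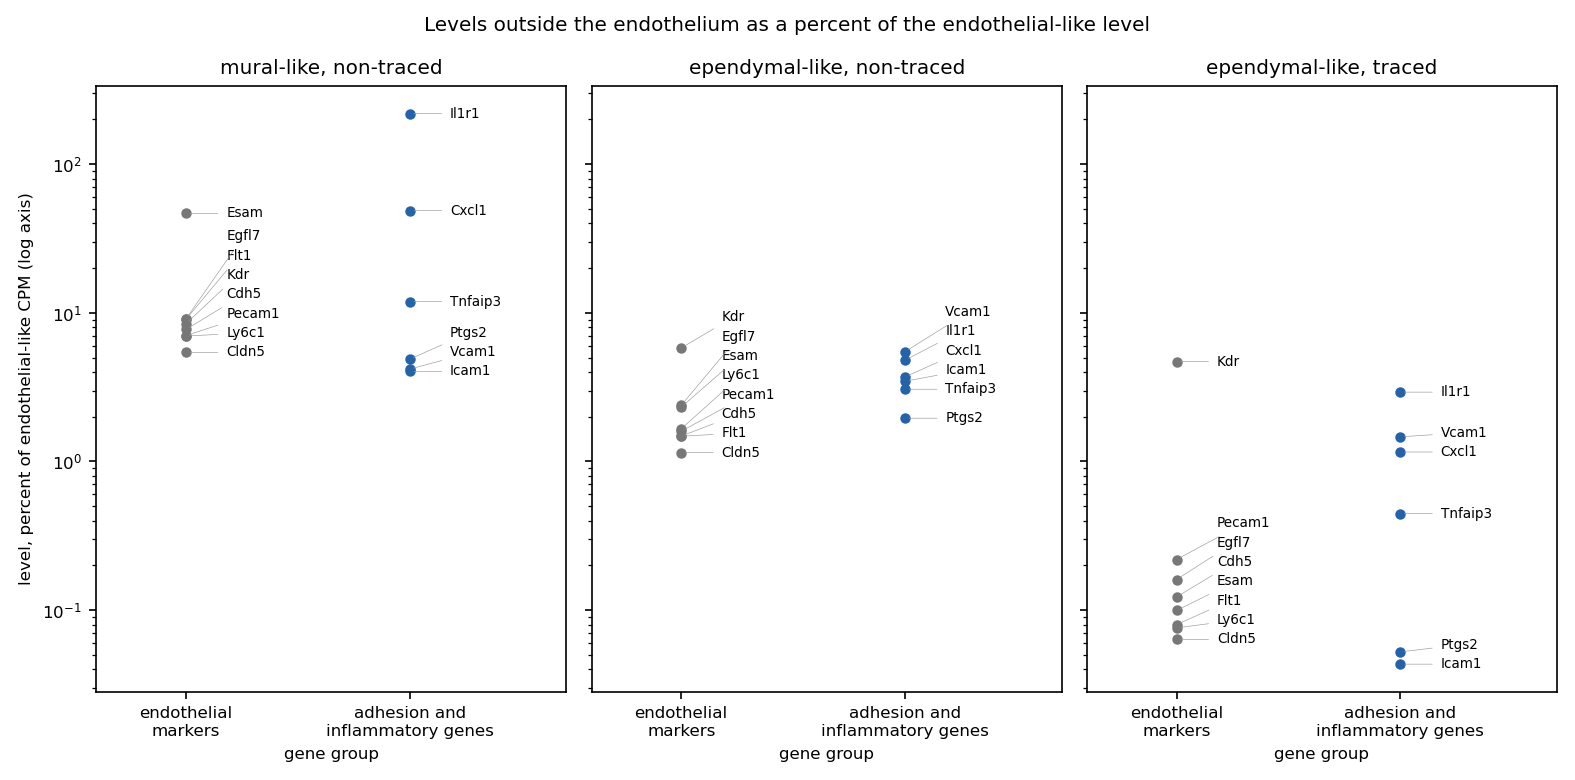
Level in mural-like cells and in ependymal-like cells of each library as a percent of the level in non-traced endothelial-like cells (log axis), for 8 endothelial markers (grey) and the 6 genes found throughout the endothelium (blue). In mural-like cells Il1r1 (219%) and Cxcl1 (48.7%) lie above all 8 markers, and in traced ependymal-like cells Icam1 (0.0433%) lies at the foot of the axis.

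Between the libraries, Vcam1 and Icam1 were lower in DNGR-1-traced ependymal-like cells, and so were the summed levels of Cxcl1, Il6, Tnfaip3 and Ptgs2. The Il6 difference rests on 17 non-traced UMIs, several of them in 1 cell as given above. Counting intervals do not cover such clumping, so no difference in Il6 is read from it. Ccl2 and Il1r1 did not differ beyond counting error. Vcam1 stood at 1.90 CPM (1.53 to 2.35) in the traced cells, against 7.12 CPM in the non-traced cells, a ratio of 3.74 (2.65 to 5.25). It was the only gene of the list at 5 CPM or more in either, and it was at least 2-fold lower in traced cells, where 1.88% of 11302 genes were lower and 0.858% higher. The 8 endothelial markers summed to 41.6 CPM in the traced cells and to 344 CPM in the non-traced cells, and none was at 0. Among cells without a UMI of 6 of these markers Vcam1 stood at 1.67 CPM in traced cells (74 UMIs) and 6.45 CPM in non-traced cells (7 UMIs). In these cells Cxcl1 stood at 0.968 and 0.922 CPM, Il6 at 0.946 and 0.922 CPM and Il1r1 at 0.878 and 0.922 CPM, each with a single UMI on the non-traced side, so a difference in these genes was not detectable at this depth.

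Of Icam1, the 4750 traced cells held only 2 UMIs (0.0438 CPM) and the 1148 non-traced cells 30, a ratio of 80.0 (20.3 to 691). As a point value, its 0.0433% of the non-traced endothelial-like level was below every endothelial marker in traced cells (0.0635% to 0.219%, and 4.69% for Kdr). It rests on 2 UMIs, and whether it lay below the markers beyond counting error was not tested. The endothelial-like cells of the traced library had less Icam1, as given below, so a percent of their own level would be higher. Tnfaip3 had 7 UMIs (0.153 CPM) in traced and 9 UMIs (1.05 CPM) in non-traced cells. Ptgs2 had 1 UMI (0.0219 CPM) and 7 UMIs (0.817 CPM), and Sele and Selp had none in either. Cxcl1 stood at 0.985 and 3.15 CPM, Il6 at 0.919 and 1.98 CPM and Ccl2 at 0.941 and 0.583 CPM in traced and non-traced cells. The Ccl2 ratio of traced to non-traced, 1.61 (0.640 to 5.22), included 1. Il1r1 stood at 0.853 and 1.40 CPM, and its ratio of 0.609 (0.313 to 1.28) also included 1.

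Most Il6 and Cxcl1 UMIs of the traced cells lay in a single cluster, and whether single cells held several of these transcripts was not measured. A cluster of 1248 of the 4750 cells, led by Socs3, held 37 of the 42 Il6 UMIs, 32 of the 45 Cxcl1 UMIs and 23 of the 43 Ccl2 UMIs. In that cluster Il6 stood at 3.37 CPM, Cxcl1 at 2.91 CPM and Ccl2 at 2.09 CPM. Without it the traced levels were 0.144, 0.375 and 0.576 CPM. The summed dissociation genes were 16627 CPM in this cluster and 1016 to 5925 CPM in the others, and their part was not tested. Vcam1 had another site, a cluster of 208 traced cells with 9.56 CPM, where Ccl2 stood at 3.19 CPM and the endothelial markers summed to 158 CPM.

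The 44 endothelial-like cells of the traced library had 30.2 CPM of Icam1 (16.5 to 50.7), 71.2 CPM of Cxcl1 (49.0 to 99.9), 36.7 CPM of Il1r1 (21.4 to 58.7) and 12.9 CPM of Vcam1 (4.75 to 28.2). Against the non-traced endothelial-like levels of 101, 85.0, 29.2 and 130 CPM, Icam1 and Vcam1 were lower beyond counting error and Cxcl1 and Il1r1 were not. With 44 cells these were not split into arterial-like, capillary-like and venous-like cells, and the makeup of the class cannot be told apart from a difference in level.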

How the data were processed

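Cells of mouse spinal cord were profiled with a droplet kit that reads 3′ ends of transcripts, as 1 library per group. The authors deposited UMI counts per gene and cell barcode, made with Cell Ranger 3.0.2 and STAR 2.5.1b against mm10 with reporter sequences added, per the submitters' processing notes, which also name R 3.6.0 and Seurat 3. Reads shared by near-identical genes may have been lost in that step. The study's filter (at least 50 genes, at most 10% mitochondrial genes) kept all 25411 non-traced and 4825 traced cells, with medians of 7218 and 8566 UMIs.

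As in the study, the libraries were integrated on 2000 features, here in Seurat 5.3.0 under R 4.3.3. Clustering used 20 components, and its resolution of 0.8 was chosen here. The cells of a cluster were named separately for each library, as "X-like" where at least 70% of the markers of a class, and at least 3, were each found in 50% of the cells and the leading genes did not go against the name. Sets that met this for a second class were called mixed. Endothelial-like cells were clustered again without the 10 genes and the activation list, and named by the arterial, capillary and venous marker lists. The naming score left out Ackr1 and Lrg1, which are on the activation list too. The naming rules were set after marker levels had been seen. Sub-clusters led by stress or immune genes (Hspa1b, Egr1, Icam1, Socs3) kept their class name, and names may differ from the study's. Doublets were kept. Scrublet in scanpy 1.11.5 (Python 3.11.15, numpy 2.4.6) called 8.54% of non-traced cells (20.3% expected) and 0 of 4825 traced cells (3.86% expected), so it did not work in the traced library.

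Counts were summed per class as CPM. Intervals are 95% exact Poisson (CPM), Clopper-Pearson (shares) and conditional binomial (ratios of CPM), and 0 counts are limited by a floor of 3 counts. Differences on log2(CPM + 1), which understates those of low genes, were called at 2-fold among genes of at least 5 CPM. The calls were tried on simulated Poisson counts only with changes larger than 2-fold in genes well above 5 CPM. That trial does not cover changes near 2-fold or genes near 5 CPM.

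The 10 genes, the activation list and the marker lists were chosen with earlier results of these data known. All 10 genes are named. Of the activation list, up to 4 genes per role with the highest CPM in an endothelial class are named, with every gene 2-fold apart between venous-like and capillary-like cells. Its genes called in other comparisons are named where 6 or fewer were called in a direction, chosen after their values were seen. The 5 genes most like the 10 were ranked by Pearson r. Csf2, Cxcl3, Cxcl5, Glycam1, Gp1ba, Il1rl1 and Madcam1 of the fixed lists had no row.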

Additional observations from a re-analysis of the deposited data

How the results depend on the processing

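The count of the 10 genes at least 2-fold apart stayed within 1.5 times its reported value in all but 1 comparison. It was 6 to 8 against 7 for venous-like and capillary-like cells, 2 under every alternative for arterial-like and capillary-like cells, 5 to 7 against 6 for mural-like cells and 6 to 7 against 6 for ependymal-like cells. The alternatives were the mean of single cells' CPM, a pseudocount of 0.1 CPM, no filter on low levels, cells thinned to 1000 UMIs, no called doublets, no integration, stricter cell filters (3000 UMIs and 5% mitochondrial) and, for the endothelial classes, resolutions 0.4 and 1.2 and clustering with the genes kept. For traced against non-traced ependymal-like cells the count was 1 as reported, 3 with no filter on low levels and 2 with cells thinned to 1000 UMIs. No filter adds genes under 5 CPM by construction, and the cause under thinning was not tested. Of 242 values of single genes under the alternatives, 164 stayed within the counting interval of the reported difference, 78 moved beyond it and 0 reversed. A reversal was counted only for genes reported as at least 2-fold apart, so a change of sign in the other genes was not counted. The alternatives that left out single clusters, or cells with a UMI of 6 endothelial markers, were chosen after seeing the data. Without the small Ackr1-high sub-cluster the venous-to-capillary log2 difference was 3.36 for Ptgs2 and 0.62 for Selp, so that Selp was no longer 2-fold apart. With no integration no mural-like class formed, and that alternative has no mural-like value. No paired analysis was possible because each group was a single library. Depth limits the selectins, Ccl2 and Il6 above all, with 177 (Sele), 157 (Selp), 3 (Ccl2) and 11 UMIs (Il6) in endothelial-like cells.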
